A study of Rattus norvegicus with 6 samples.

Results

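The miR-28, miR-151 and miR-708 family is a set of 3 microRNA hairpins whose mature products were followed here in the peri-infarct cortex of stroke rats with and without magnetic stimulation. Its members were picked by name, and they are rno-miR-28-5p, rno-miR-28-3p, rno-miR-151-5p, rno-miR-151-3p, rno-miR-708-5p and rno-miR-708-3p, 6 of the 493 mature miRNAs counted. The prefix rno, for rat, is left out below. The family was chosen by a rule on names that was proposed with the groups' values already known. Each value that sets the groups side by side is therefore a description, and no p-value is printed for a member. Where members are said to be called, this comes from the fit over all miRNAs. It describes that fit and is no test of a member or of the family. All 6 members passed the filter on low counts, which kept 452 of the 493 miRNAs.

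Both groups were male Sprague-Dawley rats of 250 to 270 g in which the right middle cerebral artery was closed for 90 min and then reopened (MCAO). The MCAO group had 3 rats, and per the labels its cortex was taken at 7 days, counted from reperfusion in replicates 1 and 2 and from surgery in replicate 3. The MCAO + rTMS group had 3 rats that also received repetitive transcranial magnetic stimulation (rTMS) at 10 Hz for 10 min a day over 7 days. Their labels give no sampling day, and whether the MCAO rats met an inactive coil is not given in the sources used here. Each rat gave 1 small RNA library, and sham-operated rats were not analysed here. The comparison asks how miRNA counts in the tissue around the infarct differed with rTMS.

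A microRNA gene is transcribed as a hairpin, and the enzymes Drosha and Dicer cut it to a short duplex. The strand from the 5′ side is called the 5p arm and the strand from the 3′ side the 3p arm. Usually one strand is loaded into an Argonaute protein, where it represses messenger RNAs that pair with its seed, bases 2 to 8, and the other is degraded. The balance of the arms therefore sets which messages a hairpin can reach. All 3 hairpins of this family lie inside protein-coding genes. By RefSeq's annotation of GRCr8, Mir28 lay within the span of Lpp, which encodes a protein of cell adhesions. Mir151 lay within Ptk2, the gene of focal adhesion kinase, and Mir708 within Tenm4, which encodes a teneurin, a large membrane protein of the developing brain. No coordinates are printed, since the submitters' processing notes name rn6, another build. miR-28 and miR-151 are known to have arisen from an ancient LINE repeat, and miR-708 is known to be induced together with its host gene under endoplasmic reticulum stress.

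The mature sequences are shown because the arms of this family differ in seed, and a hairpin that shifts from one arm to the other thereby presents another seed. Of the 6 members, 4 matched a mature sequence by name in RefSeq (GRCr8), and miR-151-5p and miR-151-3p are named only. Sequences run 5′ to 3′, and the capitals mark the seed.
miR-28-5p: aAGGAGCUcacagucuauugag
miR-708-5p: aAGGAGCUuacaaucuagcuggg
miR-28-3p: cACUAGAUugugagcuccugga
miR-708-3p: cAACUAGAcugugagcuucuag
The 5p arms of miR-28 and miR-708 carried the same seed, AGGAGCU, and no other rat mature miRNA of the RefSeq table had it. Counted from 1 at the 5′ end, they were identical at 16 of 22 positions, and miR-708-5p differed from miR-28-5p by C9U, G13A, U18G, U19C, G20U and A21G. The seeds of the 3p arms, ACUAGAU in miR-28-3p and AACUAGA in miR-708-3p, are offset by 1 base, and each was found in that miRNA alone. Set against each other with that offset, the 3p arms were identical at 17 of 21 positions, with UGUGAGCU as their longest common run.

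Total counts lay between 10492610 and 15411620 per library, and each level is in CPM, a count scaled to the library total after correction by edgeR's TMM factors, which ranged from 0.695 to 1.39. The replicates of a group are different rats. MCAO + rTMS replicate 3 stood apart, with a median absolute log2 difference of 0.417 from the rest of its group, against 0.149 to 0.302 in the other libraries, and with the lowest TMM factor. The brain markers miR-124, miR-128, miR-9a and miR-138 were present in every library, and the liver marker miR-122-5p stayed at or below 29.6 CPM. In bulk cortex, fewer cells of a type and less RNA per cell cannot be told apart.

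miR-151-3p was by far the most abundant member, rank 47 of the 452 tested miRNAs by mean count, and the other 5 ranked between 141 and 289. Without rTMS, the order of mean levels was miR-151-3p, miR-708-5p, miR-708-3p, miR-28-3p, miR-151-5p and miR-28-5p. The range of miR-708-3p overlapped those of both its neighbours in this order, and the remaining neighbours were separate in all 3 libraries. With rTMS, the order was miR-151-3p, miR-708-3p, miR-28-3p, miR-151-5p, miR-708-5p and miR-28-5p, where miR-28-3p and miR-151-5p overlapped and the other neighbours did not. miR-708-5p thus held place 2 without rTMS and place 5 with it, and miR-28-5p was last in both groups.

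**Figure D1:**
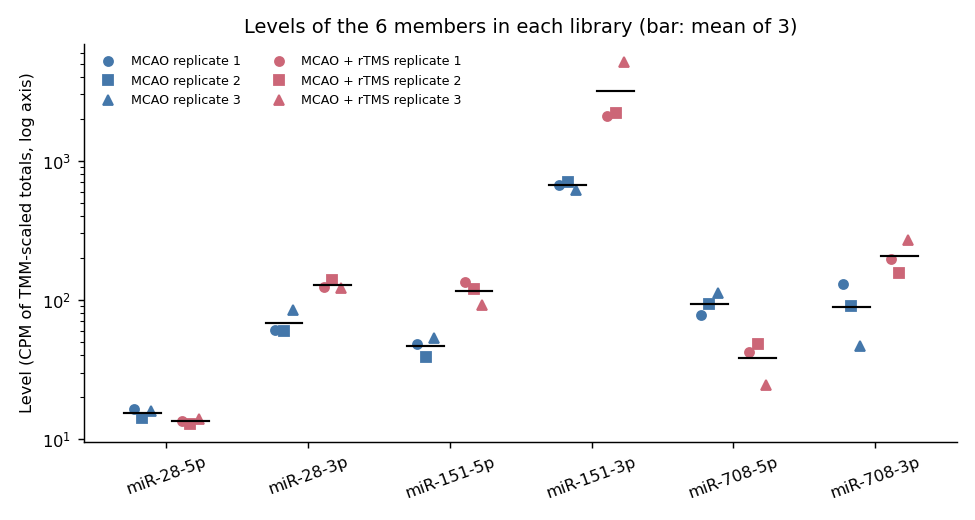
Level of each member in each library, in CPM after TMM scaling on a log axis, with MCAO in blue, MCAO + rTMS in red, a marker for each replicate number and a bar at the mean of 3. The 3p arms and miR-151-5p sit higher with rTMS and miR-708-5p lower, and MCAO + rTMS replicate 3 stands out for miR-151-3p at 5124 CPM.

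miR-151-3p, the major arm of its hairpin, was 4.74-fold higher with rTMS. The MCAO libraries 1, 2 and 3 held 667, 705 and 620.4 CPM of it, and the MCAO + rTMS libraries 1, 2 and 3 held 2107, 2219.6 and 5124 CPM. The groups were far apart, and MCAO + rTMS replicate 3 alone exceeded the sum of the other 2 libraries of its group. It averaged 664 ± 42.2 CPM without rTMS and 3150.3 ± 1710.2 CPM with it (SD, n = 3 each), and the fitted log2 fold change was 2.25 ± 0.37 (SE). Leaving out MCAO + rTMS replicate 3 gave 1.73.

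miR-151-5p, the minor arm of the same hairpin, was also higher with rTMS, by 2.48-fold. Its MCAO libraries 1, 2 and 3 were at 48.5, 38.6 and 52.9 CPM, and its MCAO + rTMS libraries 1, 2 and 3 at 135, 119.7 and 91.8 CPM. The groups did not overlap, and the library with the most miR-151-3p, MCAO + rTMS replicate 3, had the least miR-151-5p of its group. The mean levels were 46.7 ± 7.30 CPM and 115.6 ± 22.0 CPM (SD, n = 3 each), and the fitted log2 fold change was 1.31 ± 0.22 (SE). Per library total without TMM factors the groups did overlap, from 44.6 to 73.7 CPM without rTMS and from 63.9 to 116.7 CPM with it.

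miR-708-5p, which carries the seed AGGAGCU, was at 0.408 of its MCAO level with rTMS. The MCAO libraries 1, 2 and 3 had 77.5, 93.0 and 111.7 CPM, and the MCAO + rTMS libraries 1, 2 and 3 had 42.3, 48.4 and 24.3 CPM. All 3 libraries with rTMS lay below the lowest without it, and this held for raw counts as well, with 250 to 574 reads against 1127 to 1783, although the totals were larger with rTMS. Its means were 94.0 ± 17.1 CPM and 38.3 ± 12.5 CPM (SD, n = 3 each), and the fitted log2 fold change was -1.29 ± 0.29 (SE).

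miR-708-3p, cut from the same hairpin, went the other way and was 2.34-fold higher with rTMS. It stood at 129, 90.0 and 46.8 CPM in the MCAO libraries 1, 2 and 3, against 196, 156 and 271 CPM in the libraries 1, 2 and 3 of the rTMS group. The groups did not overlap in CPM, but they did in raw counts and per library total without TMM factors, and the spread among MCAO libraries was the widest of any member, with an SD of 46.5% of the mean. The averages were 88.7 ± 41.2 CPM and 208 ± 58.5 CPM (SD, n = 3 each), and the fitted log2 fold change was 1.23 ± 0.38 (SE). Among the MCAO libraries the arms of miR-708 stood in opposite order, with replicate 1 highest in the 3p arm and lowest in the 5p arm, and replicate 3 the reverse.

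miR-28-3p was 1.87-fold higher with rTMS. Without rTMS it measured 60.2, 59.5 and 84.9 CPM in libraries 1, 2 and 3, and with rTMS 123, 138 and 121 CPM in libraries 1, 2 and 3. The groups did not overlap in CPM, and MCAO replicate 3 was the library without rTMS that came nearest to the other group. The group means were 68.2 ± 14.5 CPM and 127 ± 9.53 CPM (SD, n = 3 each), and the fitted log2 fold change was 0.90 ± 0.20 (SE). Per library total without TMM factors the groups overlapped, with MCAO replicate 3 at 118 CPM and MCAO + rTMS replicate 3 at 83.9 CPM.

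miR-28-5p, the other carrier of the seed AGGAGCU, was the scarcest member, with a mean count of 193. Libraries 1, 2 and 3 of the MCAO group gave 16.4, 14.2 and 15.8 CPM, and those of the rTMS group gave 13.4, 12.9 and 14.0 CPM. The groups did not overlap, but the gap between the lowest value without rTMS and the highest with it was smaller than the SD of the MCAO libraries. Mean levels were 15.5 ± 1.15 CPM and 13.4 ± 0.549 CPM (SD, n = 3 each), and the fitted log2 fold change of -0.20 ± 0.18 (SE) was close to the median of all tested miRNAs, -0.21.

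Across the whole table, 55.3% of the 452 miRNAs tested had an adjusted p under 0.05 (Benjamini-Hochberg) by the quasi-likelihood test of edgeR, and 5 of the 6 members were among them. Called higher with rTMS were 4 members, where 27.2% of all miRNAs were, and called lower was 1, where 28.1% were. By arm, the 3p members were called higher in 3 of 3 cases, beside 27.1% higher and 28.6% lower over all 210 names ending in 3p. The 5p members split into 1 higher, 1 lower and 1 not called, beside 26.6% higher and 30.7% lower over all 199 names ending in 5p. The groups did not overlap in CPM for 6 of 6 members and for 66.8% of the miRNAs tested. Nothing is read from these shares, because the family was proposed with this comparison known. miR-708-3p was the least stable of the called members. Leaving out any of 4 libraries, MCAO replicate 2 or 3 or MCAO + rTMS replicate 1 or 3, ended its call, which left 4 members called.

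The scaling of the libraries set how high the members stood. Of the miRNAs called, 49.2% were higher with TMM factors, 33.1% with upper-quartile factors and 20.9% with library totals only, and the median log2 fold change of all miRNAs was -0.21, -0.50 and -0.80. No member changed sign under any of these. On library totals only, miR-151-3p was the 1 member called higher and miR-28-5p and miR-708-5p the 2 called lower, while miR-28-3p, miR-151-5p and miR-708-3p were not called. Of all miRNAs, 12.2% were called higher and 46.0% lower on that scale. The groups then did not overlap for 3 of 6 members, miR-28-5p, miR-151-3p and miR-708-5p, and for 69.9% of the miRNAs tested. The members' log2 fold changes were next set against the median over the whole table, taken with the same factors. miR-151-3p then stood at 2.45 with TMM factors and 2.36 on library totals, and miR-151-5p at 1.52 and 1.49. miR-708-3p stood at 1.44 and 1.41, and miR-28-3p at 1.11 and 1.06. miR-708-5p stood at -1.09 and -1.10, and miR-28-5p at 0.0021 and -0.038. A change of factors moves all miRNAs by about the same amount, so these distances are preserved by construction.

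**Figure D2:**
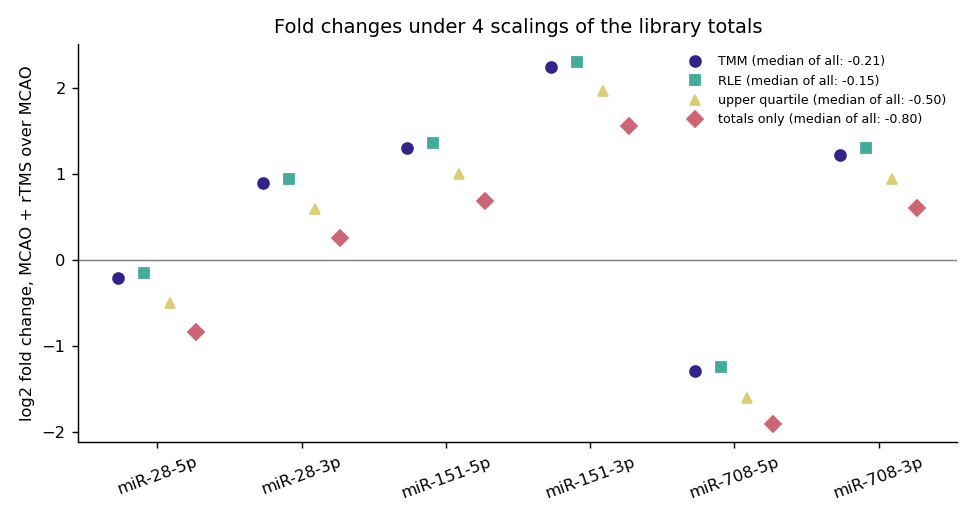
Log2 fold change of each member, MCAO + rTMS over MCAO, under 4 scalings of the libraries, with the median over all tested miRNAs in the legend. The members shift down together from TMM factors to library totals only, for miR-28-3p from 0.90 to 0.26, and none crosses zero.

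The ratio of the arms within a library does not depend on the scaling. The miR-708 hairpin was in near balance without rTMS and gave mostly the 3p arm with it. For each 5p read there were 1.67, 0.968 and 0.420 reads of the 3p arm in the MCAO libraries 1, 2 and 3, against 4.65, 3.22 and 11.2 in the MCAO + rTMS libraries 1, 2 and 3. The 3p arm was the more abundant in MCAO replicate 1 and in every library with rTMS, and the 5p arm in MCAO replicates 2 and 3. The log2 ratio of 5p to 3p averaged 0.19 ± 1.0 without rTMS and -2.46 ± 0.92 with it (SD, n = 3 each), a difference of -2.65. As a share of the hairpin's reads, the 5p arm held 52.9% ± 16.6 and 16.5% ± 7.79 (SD, n = 3 each).

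The miR-28 hairpin was biased to the 3p arm in both groups, and more so with rTMS. Its 3p reads per 5p read numbered 3.67, 4.19 and 5.38 in the MCAO libraries 1, 2 and 3, against 9.20, 10.7 and 8.62 in the libraries 1, 2 and 3 with rTMS. The groups did not overlap. The log2 ratio of 5p to 3p was -2.12 ± 0.28 and -3.24 ± 0.16 (SD, n = 3 each), a difference of -1.12. Both SDs were smaller than those of miR-708, although the counting error was largest for miR-28, with a standard error of up to 0.127 on the log2 scale.

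The miR-151 hairpin gave mostly the 3p arm in every library. Without rTMS there were 13.7, 18.2 and 11.7 reads of the 3p arm per 5p read in libraries 1, 2 and 3, and with rTMS 15.6, 18.5 and 55.8. MCAO + rTMS replicate 1 lay within the MCAO range and replicate 2 just above it, while replicate 3 was far outside. The log2 ratio of 5p to 3p was -3.84 ± 0.32 and -4.66 ± 1.0 (SD, n = 3 each). Their difference of -0.82 was -0.25 without MCAO + rTMS replicate 3. miR-151 thus had both arms higher with rTMS and an arm balance whose groups overlapped.

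**Figure D3:**
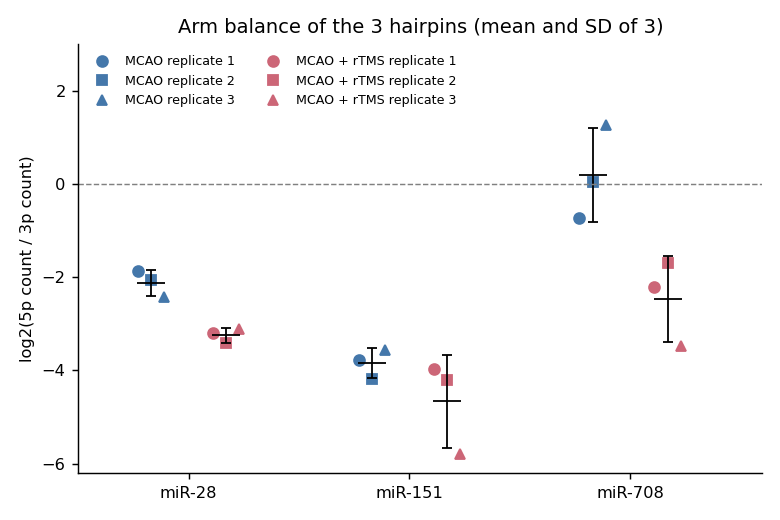
Log2 ratio of 5p to 3p counts of each hairpin in each library, with MCAO in blue, MCAO + rTMS in red, the mean and SD of 3 libraries in black and a dashed line at equal arms. The groups are apart for miR-28 and miR-708 and overlap for miR-151, where MCAO + rTMS replicate 3 lies lowest.

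Many other hairpins of these libraries also differed in arm balance. Among 116 hairpins with both arms counted in all 6 libraries, the log2 ratio did not overlap between the groups in 56.0%, and it was lower with rTMS without overlap in 27.6%, miR-28 and miR-708 among them. Over the 113 hairpins outside the family the difference had a median of -0.081, quartiles of -0.82 and 0.94, and a range from -4.04 to 3.56. From the most negative end, miR-708 ranked 10 of 116, miR-28 ranked 27 and miR-151 ranked 32. Both arms were listed for 157 hairpins, and those with an arm at 0 in any library were left out. A hairpin with an arm that was at 0 throughout 1 group is thus missing from these shares and ranks, however large its difference. All 3 differences of the family were negative, and that of miR-151 was at the lower quartile of the others. Of 138 hairpins with both arms tested, 10.1% had the 3p arm called higher and the 5p arm called lower, which is the pattern of miR-708. Both arms were called higher in 9.42%, the pattern of miR-151. The median log2 fold change of all miRNAs was the same for the arms, at -0.22 for names ending in 5p and -0.22 for names ending in 3p.

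**Figure D4:**
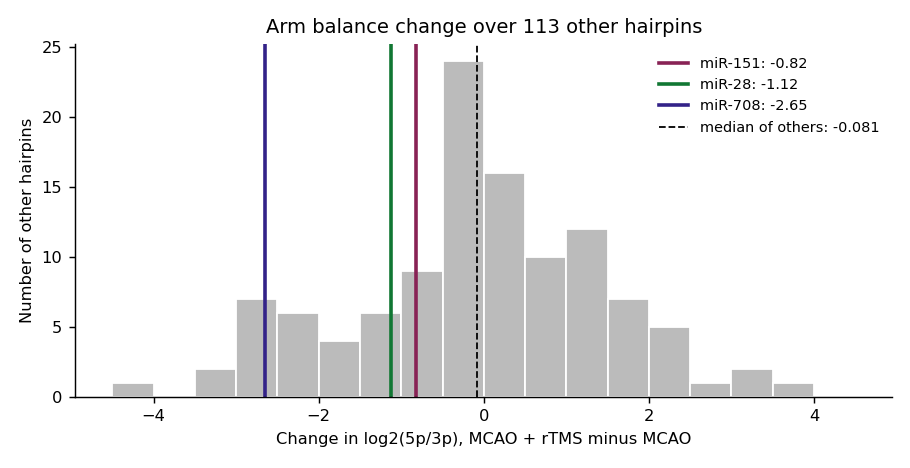
Number of hairpins outside the family by the difference in log2 ratio of 5p to 3p between MCAO + rTMS and MCAO, with the family's 3 hairpins as lines and the median of the others dashed. miR-708 lies at -2.65 in the left tail, and miR-28 at -1.12 and miR-151 at -0.82 lie nearer to the centre.

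Summed by arm, the 3p side of the family was higher with rTMS under either scaling, and the 5p side depended on the scaling. Its 3p arms together averaged 821 ± 59.5 CPM without rTMS and 3485.7 ± 1758.9 CPM with it (SD, n = 3 each), and 0.102% ± 0.00312 and 0.270% ± 0.0984 of the library totals (SD, n = 3 each). Its 5p arms together averaged 156 ± 21.0 CPM and 167 ± 32.6 CPM (SD, n = 3 each), and the groups overlapped. As a share of library totals, the direction of the 5p arms turned, to 0.0197% ± 0.00472 without rTMS and 0.0137% ± 0.00407 with it (SD, n = 3 each), and the groups did not overlap. Replicates 1 and 2 lay close, at 0.0171% and 0.0168% without rTMS and 0.0165% and 0.0156% with it. Replicate 3 was furthest from the other group in both, at 0.0251% without rTMS and 0.00905% with it. Most of the 3p sum was miR-151-3p. Without that member, the other 5 summed to 313 ± 18.4 CPM and 503 ± 24.4 CPM (SD, n = 3 each). As a share of library totals these 5 held 0.0391% ± 0.00472 and 0.0405% ± 0.00390 (SD, n = 3 each), with overlapping groups, so this difference rested on the TMM factors. Independent of the scaling, for each 5p read of the family there were 5.35 ± 1.02 3p reads without rTMS and 23.0 ± 16.8 with it (SD, n = 3 each), where MCAO + rTMS replicate 3 had 42.4 and the other libraries with rTMS 12.7 and 13.9.

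The make-up of the 5p reads, which no scaling touches, differed between the groups. miR-151-5p held 30.0% ± 3.83 of the family's 5p reads without rTMS and 69.2% ± 2.64 with it (SD, n = 3 each). miR-708-5p held 60.0% ± 4.97 and 22.5% ± 4.05, and its groups did not overlap either (SD, n = 3 each). miR-28-5p held 10.0% ± 1.41 and 8.30% ± 2.13, with overlapping groups (SD, n = 3 each). The members that share the seed AGGAGCU, miR-28-5p and miR-708-5p, summed to 93.9, 107 and 127 CPM in the MCAO libraries 1, 2 and 3, against 55.7, 61.3 and 38.3 CPM in the libraries 1, 2 and 3 with rTMS. The reads with this seed were thus fewer in each library with rTMS than in any without it, by a difference of -1.10 in mean log2 CPM and of -1.73 on library totals only. miR-708-5p supplied 85.6% ± 2.74 of them without rTMS and 72.8% ± 8.22 with it (SD, n = 3 each).

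Within the whole family, miR-151-3p took 67.9% ± 2.21 of the reads without rTMS and 84.5% ± 5.46 with it (SD, n = 3 each). In MCAO + rTMS replicate 3 its share was 90.8% (95% Wilson interval 90.5 to 91.0). miR-708-5p held 9.68% ± 2.13 without rTMS and 1.28% ± 0.742 with it, a separation seen in all libraries (SD, n = 3 each). miR-28-3p held 7.03% ± 1.80 and 3.99% ± 1.62, so its share was lower with rTMS although its level was higher (SD, n = 3 each). Among the members, miR-151-5p and miR-708-3p were those whose shares overlapped between groups. The 95% Wilson intervals of these shares reached at most 0.812 percentage points from their middle, and they cover counting error only, since reads without molecular identifiers are not independent molecules. The family held 0.122% ± 0.00744 of all miRNA counts without rTMS and 0.284% ± 0.0943 with it (SD, n = 3 each).

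**Figure D5:**
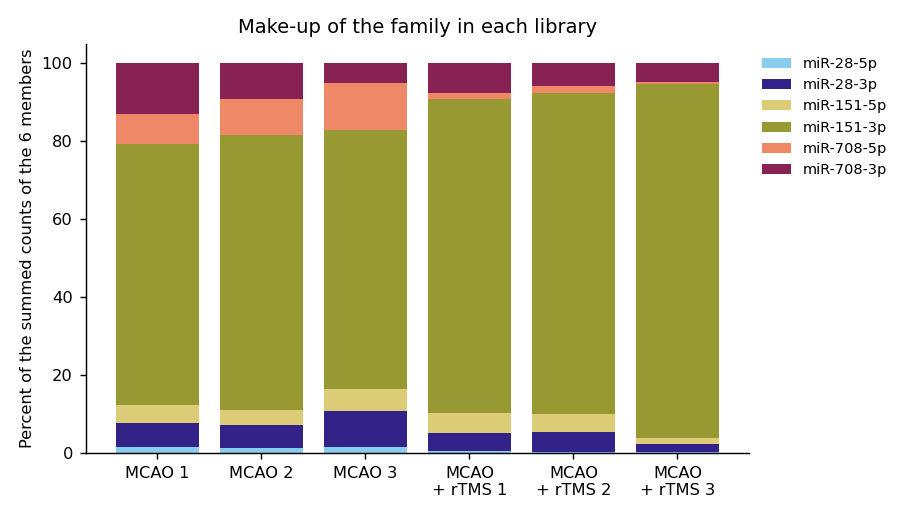
Percent of the summed counts of the 6 members taken by each member in each library. miR-151-3p is the largest part everywhere, from 66.5% in MCAO replicate 3 to 90.8% in MCAO + rTMS replicate 3, and the miR-708-5p band is thin in all libraries with rTMS.

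The members also differed in which other miRNAs they resembled. Likeness was measured as the root mean square difference of log2(CPM + 1) over the 6 libraries, after each miRNA's own mean was subtracted, among up to 286 miRNAs with a mean count above 200. miR-151-3p was most like miR-671 (difference 0.127) and miR-1224 (0.179), which also had their highest levels in MCAO + rTMS replicate 3, at 401 and 337 CPM. miR-151-5p was most like miR-152-3p (0.111) and miR-873-3p (0.127), which like it were lowest in that replicate among the libraries with rTMS. Such shared high or low libraries follow from the choice by likeness and are no separate result. The arms of miR-151 thus had different nearest profiles, and they were 0.733 from each other. miR-708-5p was nearest to miR-93-5p (0.123) and miR-186-5p (0.142). miR-708-3p was nearest to miR-148a-3p (0.210) and miR-1843b-5p (0.249), and the arms of miR-708 were 1.52 apart. For miR-28-3p the closest were miR-433-3p (0.145) and miR-222-3p (0.155), and for miR-28-5p they were miR-127-5p (0.0982) and miR-758-3p (0.112). Within the family the smallest distance was the 0.268 between miR-28-3p and miR-151-5p, which come from different hairpins, and the largest was the 1.86 between miR-151-3p and miR-708-5p. The members that share a seed, miR-28-5p and miR-708-5p, were 0.673 apart.

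Other intronic miRNAs give a setting for hairpins that lie within host genes. A list of 27 miRNA names known from introns of protein-coding genes, such as miR-338 of Aatk and miR-342 of Evl, had 44 tested members. Of these, 11 were called higher and 16 lower with rTMS, beside 27.2% and 28.1% of all miRNAs. Their median log2 fold change was -0.58, where the 6 family members had 1.06 and all tested miRNAs -0.21. The list had 11 hairpins with both arms counted in every library, and their 5p to 3p ratio was lower with rTMS without overlap in 6 and higher in 2, beside 27.6% and 28.4% of the 116 hairpins. The median difference of the 11 was -1.45. The host genes' own RNA was not analysed here.

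Marker miRNAs of other cell types are given beside the shares called over all miRNAs, 27.2% higher and 28.1% lower. Of 4 tested oligodendrocyte markers, 3 were called higher with rTMS, and the list summed to 792 to 1065 CPM without rTMS and 1283 to 2581 CPM with it. Most of that sum was miR-219a-2-3p, which averaged 692 and 1617 CPM. miR-338-3p went the other way, with a log2 fold change of -0.73, and was not called. miR-219a-5p, a defining marker, was listed at 0 in 4 of the 6 libraries. Of 9 tested leukocyte and microglia markers, 5 were called lower and 1 higher, and the list summed to 3054 to 4002 CPM and 2242 to 2799 CPM. Of 5 muscle markers, 2 were called higher and 3 lower, and they summed to 108 to 170 CPM and 254 to 406 CPM. Of 2 red blood cell markers, miR-486 was called higher and miR-451-5p lower. Of 6 endothelium and smooth muscle markers, 1 was called higher and 2 lower, and their sums overlapped. Of 10 brain markers, 3 were called higher and 3 lower, among them miR-138-5p with a log2 fold change of -1.65 and miR-9a-3p with -1.64. The brain list summed to 325195 to 422424 CPM without rTMS and 423995 to 611231 CPM with it. The brain markers called higher were all arms of miR-128. Of these, miR-128-3p averaged 212037 CPM without rTMS and 341033 CPM with it. miR-9a-5p, the other large part of the sum, averaged 167616 and 150020 CPM and was not called. All sums of these lists are in CPM after TMM scaling and were not taken on library totals. The part of these cell types in the levels of the family was not tested.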

How the data were processed

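Small RNA libraries of 6 rats' peri-infarct cortex were sequenced, and the authors deposited their raw counts, not normalized, for 493 mature miRNAs. A further table held the same counts for 73 of these, 4 members included. The submitters' processing notes name bcl2fastq, BWA, DESeq2 and the build rn6. The counting rule and miRNA database are not given in the sources used here. No count from 1 to 9 was found, and 286 of 2958 counts were 0.

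Groups and replicate numbers came from sample titles. edgeR 4.0.16 in R 4.3.3 was run with filterByExpr, TMM factors and the quasi-likelihood test, without a block, and p-values were adjusted over 452 miRNAs by Benjamini-Hochberg (threshold 0.05). The standard error is the size of the log2 fold change divided by the square root of F. The fit was also run on counts simulated from its own dispersions, with changes drawn in both directions. That run does not bear on the choice of scaling. Arm ratios and shares came from raw counts, without a pseudocount, in Python 3.11.15. As alternatives, the factors were RLE, upper-quartile or none, the tool was DESeq2 1.42.0 or a two-sample test assuming equal variance on log2(CPM + 1), the low-count filter was absent or a mean above 200, 10 was added to both arms, replicate number was a block, or 1 library was dropped. The members and lists were chosen with earlier results of these data known. Named miRNAs are the members and, for each, the 2 with the most similar profile. Any other miRNA belongs to a list.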

Additional observations from a re-analysis of the deposited data

How the results depend on the processing

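Among the alternatives run for the 6 log2 fold changes and the 3 arm ratio differences, none changed sign. On library totals only, log2 fold changes moved by more than the spread between replicates for all members, to -0.84 for miR-28-5p, 0.26 for miR-28-3p, 0.69 for miR-151-5p, 1.56 for miR-151-3p, -1.90 for miR-708-5p and 0.60 for miR-708-3p. With upper-quartile factors they moved for 3, to -0.50 for miR-28-5p, 0.60 for miR-28-3p and 1.0 for miR-151-5p. The median of all miRNAs, -0.21 with TMM factors, was -0.80 and -0.50 under these. With 1 library left out, the log2 fold change lay between 1.73 and 2.48 for miR-151-3p, the former without MCAO + rTMS replicate 3, and the number of miRNAs called, 250 with TMM factors, between 179 and 253. The change of miR-151-5p in its share of the family, -1.05 percentage points, lay between -1.76 and 0.0084, the latter without MCAO + rTMS replicate 3, and the cause was not tested. The arm ratio difference lay between -3.11 and -2.12 for miR-708, between -1.27 and -1.0 for miR-28 and between -1.17 and -0.25 for miR-151 with 1 library left out. The call of miR-708-3p was lost with upper-quartile factors, library totals only, the two-sample test, the replicate block, and when MCAO replicate 2 or 3 or MCAO + rTMS replicate 1 or 3 was left out. miR-28-5p has a mean count under 200 and dropped out under that filter. The replicate numbers mark different rats, so same-numbered libraries were not taken as pairs. Deviations of same-numbered libraries correlated at 0.20, -0.12 and -0.11 across miRNAs, and those of differently numbered libraries at between -0.28 and 0.30. With so few libraries these correlations cannot decide the pairing. With the replicate number as a block, 180 miRNAs were called, and the log2 fold changes were 2.11 for miR-151-3p and -1.33 for miR-708-5p.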
